A study of Mus musculus with 8 samples.

Results

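Connexins are the subunits of gap junctions, and 7 of their genes were followed here in mouse brain pericytes given TGF-β1: *Gja1*, *Gja4*, *Gja5*, *Gjb2*, *Gjb5*, *Gjb6* and *Gjc1*. These genes were chosen by name, with earlier results of these data known, as candidates for coupling pericytes to endothelium and to one another. They are 7 of the 20 connexin genes listed for mouse and 7 of the 54532 gene identifiers in the count files, and each identifier was found through its symbol in GENCODE M21. RNA was sequenced from 8 primary cultures of wild-type mouse brain pericytes. Of these, 4 received TGF-β1 at 5 μg mL−1 for 48 h (replicates 5 to 8) and 4 received vehicle (replicates 1 to 4). The cultures were grown from papain-digested brain in endothelial and then pericyte medium over several passages, and the methods describe no sort, so each is an expanded cell population and not freshly isolated pericytes. The dose is printed in the unit that the series description and the methods give, and nothing in the files bears on it. The methods state that male mice of given ages were used in the study as a whole. They give neither age nor sex for the animals behind these cultures. The labels number the cultures separately, whereas the methods describe 4 isolates given both treatments, so that p-values measure the spread between these 8 libraries.

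As background, a connexin spans the membrane and assembles with others of its kind into a hemichannel, and the hemichannels of neighbouring cells dock to form a channel for ions and small metabolites. In brain vessels these channels join endothelial cells, smooth muscle cells and pericytes, and they carry changes in membrane potential along the wall. The connexin composition of a channel sets what it lets pass, and only some connexins can pair across a junction. Connexin proteins turn over quickly, and their trafficking and phosphorylation set channel number apart from the amount of mRNA, which is the quantity measured here.

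Sequencing depth was similar in both groups, at 45255235 to 47651397 counts in the vehicle cultures and 45988208 to 46827358 in the TGF-β1 cultures (exact two-sided permutation test, p = 0.857, where the smallest possible is 0.0286). Levels are given as CPM, the count of a gene scaled to library size with TMM factors, in which 3 counts correspond to 0.0631 to 0.0657 CPM. The cultures carried mRNA of the pericyte genes *Pdgfrb* and *Cspg4*, but *Kcnj8*, *Abcc9* and *Vtn*, which mark pericytes in the intact brain, had at most 10 counts in every culture. The summed level of 10 pericyte markers was 414 to 433 CPM with vehicle and 568 to 590.4 CPM with TGF-β1, and of the 7 tested 2 rose (*Pdgfrb*, *Cspg4*) and 2 fell (*Anpep*, *Rgs5*). Smooth muscle markers (7 genes, *Myocd* with at most 10 counts) summed to 841 to 915 and 783 to 818 CPM, with 1 of the 6 tested higher and 2 lower. Most of this sum was *Acta2* (730.4 and 715 CPM, not called), and most of its fall was that of *Smtn*, from 125 to 61.5 CPM. Macrophage and microglia markers (7 genes, *Adgre1* and *Tyrobp* with at most 10 counts) summed to 8.04 to 8.96 and 9.29 to 11.1 CPM, with 1 of the 5 tested higher. Oligodendrocyte lineage markers (7 genes, *Olig1* and *Olig2* with at most 10 counts) summed to 66.5 to 68.3 and 66.6 to 71.2 CPM, most of it *Pdgfra*, with *Mbp* higher and *Sox10* lower among the 5 tested. The endothelial cadherin gene *Cdh5* was at 375 CPM with vehicle and 367 CPM with TGF-β1. Of the other endothelial markers, *Flt1* was at 81.6 and 99.1 CPM, *Kdr* at 17.9 and 18.6 and *Egfl7* at 4.27 and 4.3. Lower still were *Tek* (2.71 and 1.99 CPM), *Pecam1* (1.11 and 1.1) and *Emcn* (0.204 and 0.205). *Cldn5* and *Tie1* had at most 10 counts in every culture. Of 10 genes known to respond to TGF-β, 9 were higher and 1, *Tgfbi*, was lower in the treated cultures.

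All 7 connexin genes passed the filter on low counts and were tested with edgeR's quasi-likelihood test. P-values were adjusted by Benjamini-Hochberg across all 22544 genes in the test, and a gene was called below 0.05. *Gjb6* passed that filter through its vehicle cultures alone, so that it had to differ between the groups. *Gja5* met it in every TGF-β1 culture but not in vehicle replicates 1 and 3. It therefore passed only with help from the group where it was higher. Both genes are left out of the counts set beside other genes. *Gja4* and *Gjb5* rose with TGF-β1 and *Gjb6* fell. *Gja5* was called higher, but not with DESeq2 or without any 1 of 4 cultures, as given with its values. *Gja1*, *Gjb2* and *Gjc1* did not pass the test. The response was broad in these cultures: 41.3% of all tested genes were called, 20.9% higher and 20.3% lower. Among *Gja1*, *Gja4*, *Gjb2*, *Gjb5* and *Gjc1*, 2 calls therefore do not set these connexins apart. Calls with a change of at least 2-fold were rarer, at 5.41% of all tested genes. Of the same connexins, 2 had one, namely *Gja4* and *Gjb5*. As the genes were chosen with earlier results known, this count is a description only. In the same 2 genes the groups did not overlap, as was the case for 37.9% of all tested genes. The median log2 fold change of the 7, given only as a description, was 0.60, and that of all tested genes was −0.01.

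**Figure D1:**
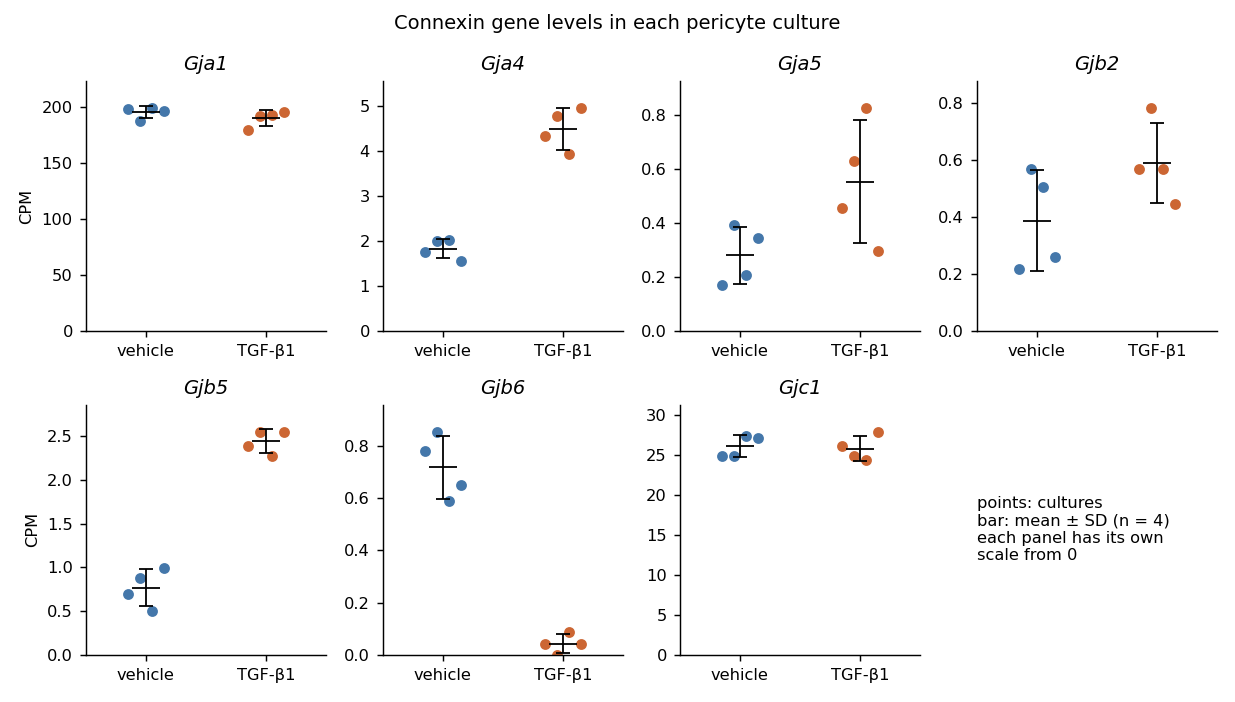
Level of each of the 7 connexin genes in CPM (linear axes starting at 0, one panel per gene), with 1 point per culture and the mean and SD of the 4 vehicle and 4 TGF-β1 cultures. *Gja4* and *Gjb5* lay higher in every TGF-β1 culture and *Gjb6* lower, while the groups overlapped for *Gja1*, *Gja5*, *Gjb2* and *Gjc1*.

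*Gja1*, *Gja4*, *Gjb5* and *Gjb6* cover the range from the most abundant connexin to those that moved most, and the 250 bases before the RefSeq start of each are shown for that reason (build GRCm38.p6, 5′ to 3′ on the strand of the gene). RefSeq promoters were found for 6 of the 7 genes, with *Gjc1* the one without. Capitals mark matches to 6 motifs searched on both strands: the SMAD palindrome GTCTAGAC, the CAGA box CAGACA bound by SMAD proteins, the AP-1 site TGANTCA, the E-box CAGGTG bound by ZEB and SNAIL factors, the GC box GGGCGG and the TATA box TATAAA.
Gja1 (chr10:56377050-56377299, plus strand): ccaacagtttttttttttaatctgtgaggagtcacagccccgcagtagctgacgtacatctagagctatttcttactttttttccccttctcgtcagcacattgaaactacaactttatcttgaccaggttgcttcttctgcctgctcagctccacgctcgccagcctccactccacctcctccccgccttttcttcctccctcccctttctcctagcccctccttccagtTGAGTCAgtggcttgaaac
Gja4 (chr4:127314040-127314289, minus strand): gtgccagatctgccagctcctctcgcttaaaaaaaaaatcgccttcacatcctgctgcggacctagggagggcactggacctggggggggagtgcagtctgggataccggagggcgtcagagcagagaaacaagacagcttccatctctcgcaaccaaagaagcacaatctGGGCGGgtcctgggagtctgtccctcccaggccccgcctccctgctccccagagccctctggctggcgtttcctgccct
Gjb5 (chr4:127358165-127358414, minus strand): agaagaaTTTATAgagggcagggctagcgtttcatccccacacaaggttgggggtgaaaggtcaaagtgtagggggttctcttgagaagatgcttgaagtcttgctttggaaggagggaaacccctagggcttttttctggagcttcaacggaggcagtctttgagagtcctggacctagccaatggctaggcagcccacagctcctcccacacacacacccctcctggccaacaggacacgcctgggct
Gjb6 (chr14:57133612-57133861, minus strand): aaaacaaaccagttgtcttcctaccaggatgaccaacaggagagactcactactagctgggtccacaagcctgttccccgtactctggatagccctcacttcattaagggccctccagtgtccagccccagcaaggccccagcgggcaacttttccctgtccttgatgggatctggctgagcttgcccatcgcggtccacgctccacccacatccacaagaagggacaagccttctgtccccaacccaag
The *Gja1* window held an AP-1 site at base −19, a motif present in 6.75% of 32851 RefSeq promoters of this length. This window ends at 56377299, before the GENCODE M21 start of *Gja1* at 56377330, so −19 is counted from the RefSeq start only. The *Gja4* window held a GC box at −79 (32.7% of promoters), and the *Gjb5* window held only the TATA letters, on the other strand and far from the start at −243 (12.4%). No match to any of the 6 motifs lay in the *Gjb6* window. Of the windows not shown, *Gja5* held a GC box at −17, and *Gjb2* held an E-box at −9 (17.2% of promoters) and GC boxes at −211 and −126. Neither the CAGA box (17.1%) nor the SMAD palindrome (0.167%) was found in the 6 windows. These are matches of letters and not measured binding sites.

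*Gja1* encodes Cx43, the most widely expressed connexin, and was by far the most abundant in these cultures. The gene lies on chromosome 10 at 56377330 to 56402513 on the plus strand (GRCm38). Its level was 198, 187, 199 and 196 CPM in vehicle replicates 1 to 4. It was 179, 192, 193 and 195 CPM in TGF-β1 replicates 5 to 8. The groups overlapped, and replicate 5 was the lowest of the 8 cultures. Vehicle cultures averaged 195 ± 5.73 CPM (SD, n = 4) and treated cultures 189.5 ± 7.45 CPM. The log2 fold change, −0.04 with an SE of 0.03, did not pass the test (edgeR, adjusted p = 0.241). The 95% interval of the fold, 0.936 to 1.01, bounds any change at this depth. Its expression was high in both conditions, at 8191 to 9456 counts per culture.

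*Gjc1* encodes Cx45, a low-conductance connexin found in vascular mural cells, and lies on chromosome 11 at 102799579 to 102819700 on the minus strand. Its level was 24.9, 24.9, 27.4 and 27.1 CPM in the vehicle cultures. It was 26.1, 24.8, 24.3 and 27.9 CPM in the TGF-β1 cultures. The highest and the lowest of the 8 values were both in the treated group. The means were 26.1 ± 1.39 and 25.8 ± 1.59 CPM (SD, n = 4), with a log2 fold change of −0.02 (SE 0.05, edgeR adjusted p = 0.81) and a 95% interval of the fold from 0.922 to 1.06. The sign of this difference rested on single cultures, since it was 0.01 without vehicle replicate 3 and 0.00 without TGF-β1 replicate 7.

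*Gja4* rose 2.45-fold. It encodes Cx37, a connexin of arterial endothelium and of mural cells, and occupies chromosome 4 from 127311421 to 127314039 on the minus strand, with an exon length of 1685 bases. The vehicle cultures had 1.76, 1.99, 2.02 and 1.56 CPM. The TGF-β1 cultures had 4.32, 4.76, 3.92 and 4.95 CPM, each above every vehicle culture. The means were 1.83 ± 0.217 and 4.49 ± 0.462 CPM (SD, n = 4), and the log2 fold change was 1.29 with an SE of 0.13 (edgeR, adjusted p = 1.34e-11). Leaving out any 1 culture gave 1.22 to 1.35.

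*Gjb5* showed the largest rise of the 7, at 3.17-fold. It encodes Cx31.1, best known from stratified epithelium and placenta, and lies on chromosome 4 at 127354809 to 127358181 on the minus strand. The vehicle cultures had 0.694, 0.877, 0.505 and 0.996 CPM. The TGF-β1 cultures lay closely together at 2.38, 2.55, 2.27 and 2.55 CPM. Every treated culture was above every vehicle culture, and the relative spread was wider among the vehicle cultures, with 24 to 46 counts each. The log2 fold change was 1.66 with an SE of 0.18 and a 95% interval from 1.30 to 2.03 (edgeR, adjusted p = 2.20e-10). The summed level of 8 epithelial markers was 2.58 to 2.88 CPM with vehicle and 2.06 to 2.46 CPM with TGF-β1, and its fall was that of *Trp63*, so that the sum does not describe the other genes. *Epcam*, *Krt5*, *Krt14* and *Cldn4* had at most 10 counts in every culture. Of the 2 epithelial genes tested, *Trp63* fell from 1.8 to 1.14 CPM and *Cdh1*, at 0.491 and 0.548 CPM, was not called. The part of epithelial cells in the rise of *Gjb5* was not tested.

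*Gjb6* fell to near the limit of detection. It encodes Cx30, which is paired with Cx43 in astrocytes and is also found in leptomeningeal cells, and it lies on chromosome 14 at 57123303 to 57133611 on the minus strand. The vehicle cultures had 36, 39, 28 and 30 counts, or 0.78, 0.855, 0.589 and 0.649 CPM. The TGF-β1 cultures had 2, 0, 4 and 2 counts, and none exceeded 0.0872 CPM. Summed over each group this was 133 against 8 counts, a ratio of 16.6 with a 95% exact interval of 8.16 to 39.1 that covers counting error only. The fitted log2 fold change was −3.97 with an SE of 0.46 (edgeR, adjusted p = 1.12e-09). Because the gene passed the low-count filter through its vehicle cultures alone, neither this p-value nor the interval is separate support for the fall. Low counts in these files were mostly even, at 68.5% to 70.2% of the values from 1 to 20, and with every count halved the ratio was 16.7 (6.22 to 63). The level was low even with vehicle, and in bulk RNA fewer cells of a type and less RNA per cell cannot be told apart.

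Markers of the cell types known for Cx30 moved in the same direction as *Gjb6* in part. The summed level of 7 astrocyte markers was 58 to 64.7 CPM with vehicle and 43.3 to 48.5 CPM with TGF-β1. Its fall was that of *Slc1a2*, from 38.5 to 16.3 CPM, so that the sum does not describe the other genes. Of the 6 astrocyte genes tested, *Slc1a2* and *S100b* fell, *Aldh1l1* and *Slc1a3* rose, and *Gfap* and *Aldoc* were not called. *Aqp4* had at most 10 counts in every culture. The summed level of 10 leptomeningeal fibroblast and arachnoid markers was 184 to 195 CPM with vehicle and 105 to 117 CPM with TGF-β1. Most of its fall was that of *Foxc2*, from 104 to 61 CPM, and *Ptgds*, from 31.1 to 3.29 CPM, so that the sum does not describe the other genes. Of the 6 tested there, the third that fell was *Dcn*, from 52 to 46.6 CPM. *Dpp4* rose from 0.189 to 0.4 CPM, and *Igf2* and *Cldn11* were not called. *Slc6a13*, *Slc22a6* and *Lum* had at most 10 counts throughout. The part of these cells in the fall of *Gjb6* was not tested.

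*Gjb2*, which encodes Cx26 and lies next to *Gjb6* at 57098600 to 57104702 on the minus strand of chromosome 14, did not follow it. Its level was 0.217, 0.57, 0.505 and 0.26 CPM with vehicle. With TGF-β1 it was 0.567, 0.783, 0.567 and 0.446 CPM. The groups overlapped, as vehicle replicates 2 and 3 lay within the treated range. The log2 fold change was 0.60 with an SE of 0.32 and a 95% interval from −0.05 to 1.25, which did not pass the test (edgeR, adjusted p = 0.138) and leaves room for a rise of over 2-fold. The counts were 10 to 26 with vehicle and 21 to 36 with TGF-β1. The third connexin of this stretch of 99.2 kb, *Gja3*, had at most 8 counts and was not tested. Among the 3 nearest tested protein-coding genes on each side, a view chosen after the values were seen, *Zmym2* was higher at 0.13 (adjusted p = 9.13e-05) and *Cryl1* (−0.25, adjusted p = 0.0047), *Ift88* (−0.19, adjusted p = 8.68e-04) and *Il17d* (−0.68, adjusted p = 0.0029) were lower, whereas *Zmym5* (0.03) and *Pspc1* (−0.02) were not called.

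**Figure D2:**
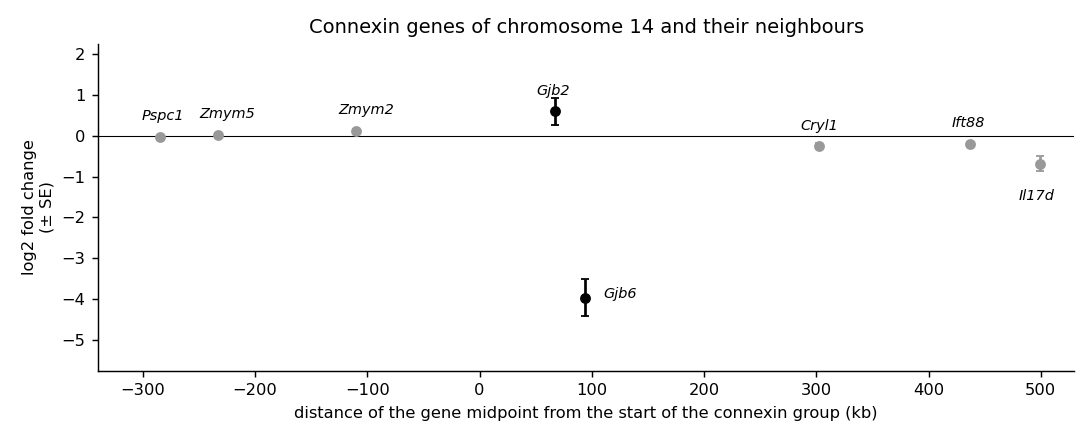
Log2 fold change (TGF-β1 against vehicle, ± SE from edgeR) against the distance in kb of each gene's midpoint from the start of the connexin genes of chromosome 14, with connexins in black and neighbouring genes in grey. *Gjb2* (0.60) and *Gjb6* (−3.97) lay on opposite sides of 0, and the neighbours lay between −0.68 and 0.13.

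*Gja5* encodes Cx40, a connexin of arterial endothelium and of the heart, and is annotated on chromosome 3 from 96904693 to 97077416 on the plus strand. It was the scarcest of the 7 with vehicle, at 8, 18, 10 and 16 counts. The TGF-β1 cultures had 21, 29, 38 and 14 counts. In CPM this was 0.173 to 0.394 with vehicle and 0.298 to 0.828 with TGF-β1, and TGF-β1 replicate 8 lay inside the vehicle range. The log2 fold change was 0.97 with an SE of 0.35 (edgeR, adjusted p = 0.0241). Because the gene passed the low-count filter only with help from its TGF-β1 cultures, this p-value is not separate support for the rise. The call was lost with DESeq2 (adjusted p = 0.0577) and without any 1 of 4 cultures, namely vehicle replicate 1 (0.0867) or 3 (0.0691) and TGF-β1 replicate 6 (0.0699) or 7 (0.164). In addition, 15.3% of its 50-base words also occur in *Gpr89* or *Zfp697*, so some of its reads could belong to those genes, and 2.87% of its exon bases overlap *Gpr89* on the opposite strand. The other 6 genes shared at most 0.115% of such words. The summed level of 9 endothelial markers was 475 to 487 CPM with vehicle and 476 to 501 CPM with TGF-β1, with *Flt1* higher and *Tek* lower among the 6 tested.

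**Figure D3:**
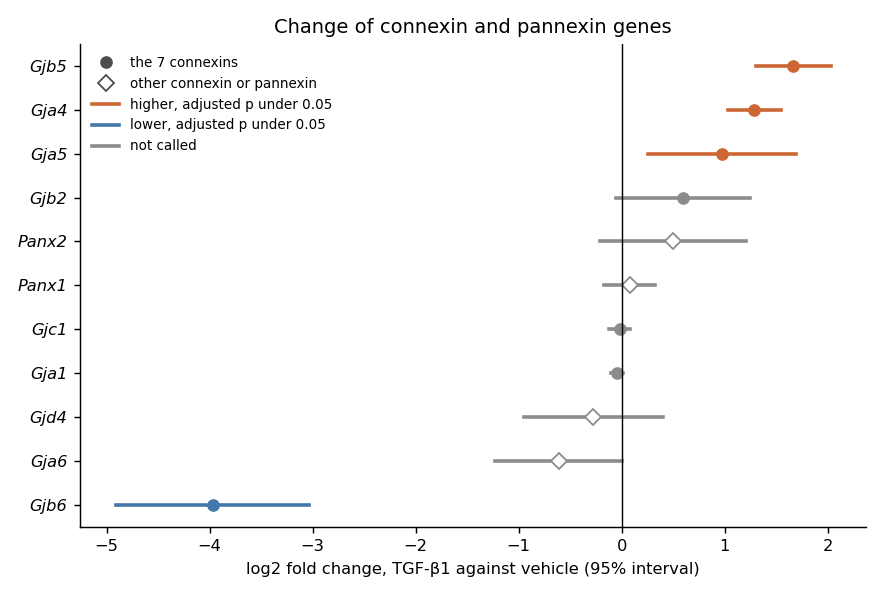
Log2 fold change of the 7 connexins, *Gja6*, *Gjd4*, *Panx1* and *Panx2* (TGF-β1 against vehicle), with a point for the edgeR estimate (filled for the 7 connexins, open for the others) and a bar for the 95% interval. The intervals of *Gja4*, *Gjb5* and *Gja5* lay above 0 and that of *Gjb6* far below it, while those of *Gja1* and *Gjc1* were narrow and crossed 0.

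To compare the 7 connexins with one another, CPM was divided by exon length in kb. With vehicle the order of levels was *Gja1* (19 CPM per kb), *Gjc1* (5.21), *Gja4* (1.09), *Gjb5* (0.446), *Gjb6* (0.269), *Gjb2* (0.161) and *Gja5* (0.0489). The ranges of the 4 vehicle cultures overlapped between *Gjb5* (0.293 to 0.578) and *Gjb6* (0.22 to 0.32) and between *Gjb6* and *Gjb2* (0.0901 to 0.237), and the other neighbours in this order were apart. With TGF-β1 the level was 18.5 CPM per kb for *Gja1*, 5.15 for *Gjc1*, 2.66 for *Gja4*, 1.41 for *Gjb5*, 0.246 for *Gjb2* and 0.0964 for *Gja5*. *Gjb6*, at 0.0162, had become the lowest, and no neighbours in this order overlapped among the treated cultures.

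The summed level of the 7 genes was 26.2 ± 0.577 CPM per kb with vehicle and 28.1 ± 1.01 with TGF-β1 (SD, n = 4). *Gja1* took 72.5 ± 1.03% of it with vehicle and 65.8 ± 1.38% with TGF-β1, and *Gjc1* took 19.9 ± 0.709% and 18.3 ± 0.989%. The share of *Gja4* went from 4.15 ± 0.518% to 9.48 ± 0.751%, and that of *Gjb5* from 1.7 ± 0.489% to 5.04 ± 0.198%. These shares, which are described without a test, depend on the length used: with the longest transcript, *Gja1* took 83.7% and 80.2% and *Gja4* 1.82% and 4.38%. The direction was the same with either length for these genes.

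**Figure D4:**
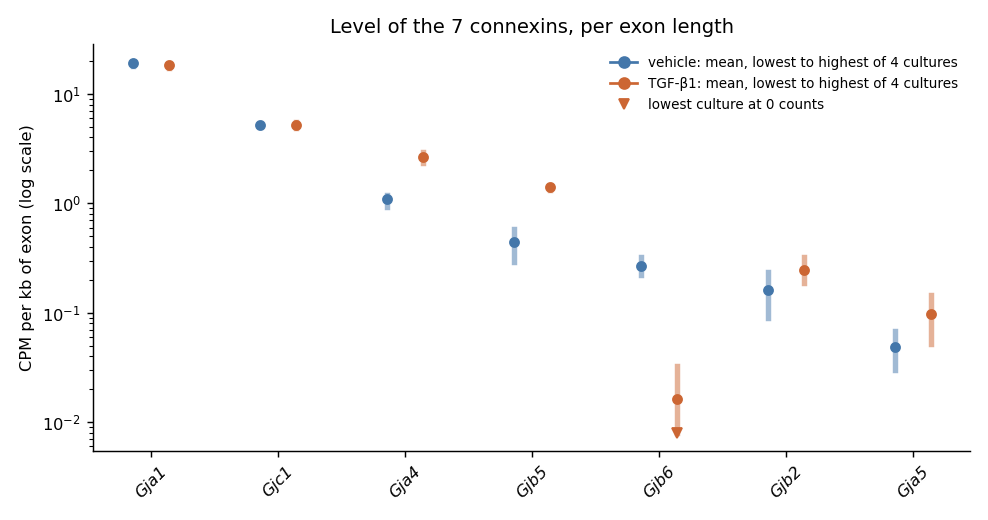
Level of each of the 7 connexins in CPM per kb of exon on a log axis, with the mean of the 4 cultures of each group as a point, a bar from the lowest to the highest culture, and a triangle where the lowest culture had 0 counts. *Gja1* was the highest in both groups (19 and 18.5 CPM per kb), and *Gjb6* moved from 0.269 to 0.0162 CPM per kb.

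*Gja6* and *Gjd4*, further members of the connexin family, were tested and not called. *Gja6* had a log2 fold change of −0.61 (SE 0.30, edgeR adjusted p = 0.109), although its 4 treated cultures, at 0.349 to 0.392 CPM, lay below the 4 vehicle cultures at 0.463 to 0.672 CPM. *Gjd4* had −0.28 (SE 0.33, adjusted p = 0.556). *Gja3*, *Gja10*, *Gjb1*, *Gjc3*, *Gjd2*, *Gjd3* and *Gje1* were too low to test, with at most 13 counts in any culture.

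Pannexins form related channels that do not dock into junctions. *Panx1* had 3.01 to 3.66 CPM with vehicle and 3.2 to 4.19 CPM with TGF-β1 (log2 fold change 0.08, SE 0.12, edgeR adjusted p = 0.663). *Panx2* had 0.195 to 0.39 and 0.255 to 0.566 CPM (0.50, SE 0.35, adjusted p = 0.279), and *Panx3*, at 4 to 10 counts, was not tested. Of the 2 tested 0 were called by edgeR, 0 had an unadjusted p under 0.05, and 0 were called by DESeq2.

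Genes whose products anchor, deliver or remove connexins moved in both directions. Of 25 listed genes 24 were tested, and 19 were called (79.2%, beside 41.3% of all tested genes). Of these, 11 were higher and 8 lower, with a median log2 fold change of 0.03 over the tested genes. *Tjp3* apart, each tested gene had at least 1427 counts in every culture. At such depths a log2 fold change of 0.08 (*Smurf2*) was called. The list was also chosen with earlier results known, so the share does not set these genes apart. *Ccn3*, a matricellular protein that binds Cx43, fell from 95.7 to 49.3 CPM (log2 fold change −0.96, edgeR adjusted p = 6.58e-28). *Cav2*, a caveolin, rose from 33.4 to 62.2 CPM (0.90, adjusted p = 2.57e-21). *Wwp1*, a ubiquitin ligase, fell from 188 to 121 CPM (−0.64, adjusted p = 3.60e-24), and *Dbn1*, the actin-binding protein drebrin, rose from 100.3 to 147 CPM (0.55, adjusted p = 1.32e-21).

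Of 13 genes for kinases that phosphorylate Cx43, 9 were called, 4 higher and 5 lower, with a median of −0.01. This was 69.2%, beside 41.3% of all tested genes. Each had at least 1936 counts in every culture, and at such depths a log2 fold change of 0.08 (*Prkaca*) was called. The list was chosen with earlier results known, so the share does not set these genes apart. *Prkca*, which encodes protein kinase C alpha, fell from 74.5 to 51.4 CPM (log2 fold change −0.54, edgeR adjusted p = 6.15e-19), and the MAP kinase gene *Mapk3* fell from 253 to 182 CPM (−0.48, adjusted p = 1.70e-20). *Tyk2*, a Janus kinase, fell from 64.8 to 50.7 CPM (−0.35, adjusted p = 7.46e-12), and the tyrosine kinase gene *Src* rose from 78.9 to 93.1 CPM (0.24, adjusted p = 2.64e-09). The amounts of protein and their phosphorylation were not measured in these libraries.

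**Figure D5:**
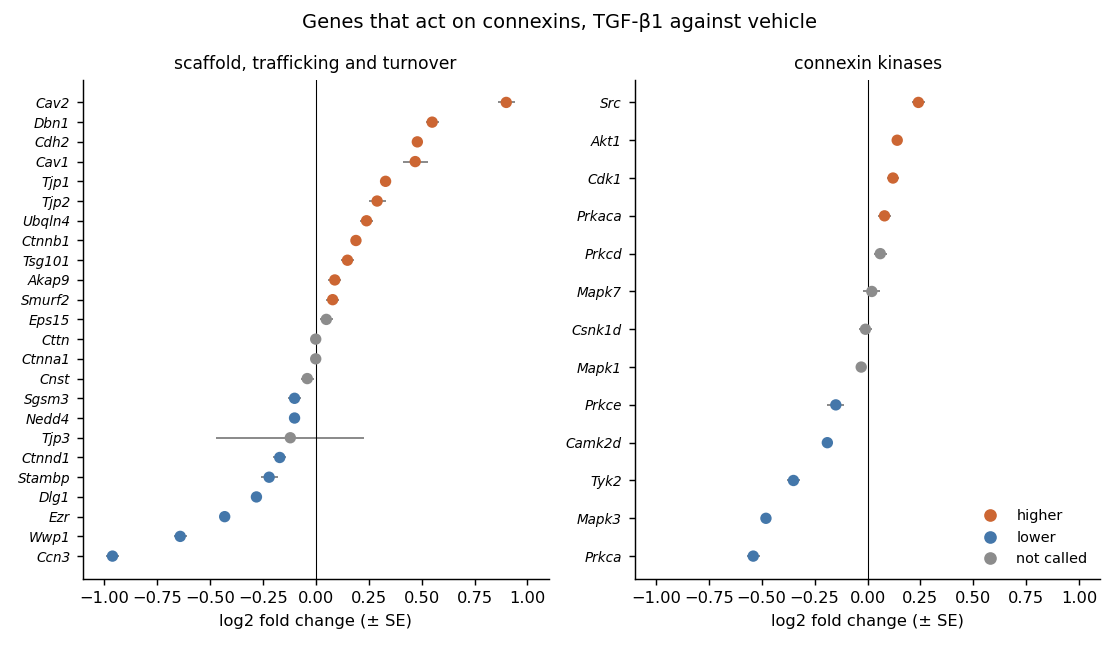
Log2 fold change (TGF-β1 against vehicle, ± SE from edgeR) of the listed scaffold, trafficking and turnover genes and of the kinase genes, in orange where higher, blue where lower and grey where not called. Both lists spread to either side of 0, with *Ccn3* (−0.96) and *Cav2* (0.90) at the ends.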

How the data were processed

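Total RNA of 8 mouse brain pericyte cultures (4 vehicle, 4 TGF-β1) was sequenced from stranded libraries. The deposited values are counts per gene: the authors aligned reads to mm10 with STAR 2.7.5c, removed duplicates with samtools 1.15 and counted with featureCounts 2.0.3. Annotation release, strand setting and handling of shared reads are not given in the sources used here. Depth was 45255235 to 47651397 counts per culture. Intervals on counts cover counting error only.

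Counts were tested with edgeR 4.0.16 (R 4.3.3; filterByExpr, TMM, robust quasi-likelihood test) over 22544 genes, with Benjamini-Hochberg adjustment and a threshold of 0.05. Standard errors were the size of the log2 fold change divided by the square root of F. Positions and lengths came from GENCODE M21 on GRCm38, and promoters from RefSeq. The code was tested on simulated data. The connexins and the lists (other connexins, pannexins, scaffold and turnover genes, kinases, TGF-β response, and markers of pericytes, smooth muscle, endothelium, astrocytes, oligodendrocytes, macrophages, meningeal fibroblasts and epithelium) were chosen with earlier results of these data known. Named genes were all connexins and pannexins and, from the scaffold and kinase lists, the 4 largest called changes. Some genes under this rule are not reported here. *Hgs*, with more than 1 identifier, was left out. Alternatives were DESeq2 1.42.0, 3 other scalings, 2 other filters, halved counts, another gene length and each culture left out.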

Additional observations from a re-analysis of the deposited data

Results flagged for a closer look

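*Panx1* in TGF-β1 replicate 7 stood apart from its group, at 4.19 CPM against 3.25 CPM in the next highest culture. Over the 30 groups of 4 values examined, chance alone would single out about 1 in 20 groups, or 1.5.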

How the results depend on the processing

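*Gja4* and *Gjb5* kept their direction and their call in every alternative that gave a value. *Gjb6* did so too, but most of these fits admitted it through its vehicle cultures alone, so its call there is not separate support. *Gja5* lost its call with DESeq2 (0.98) and in 4 of the 8 fits that left out a culture (0.71 to 1.19), and *Gjc1* ranged from −0.05 to 0.01 on leaving out a culture, reversing without vehicle replicate 3 (0.01) or TGF-β1 replicate 7 (0.00). The cause was not tested. With at least 10 counts required in every culture, *Gja5* and *Gjb6* were not tested, which left 2 connexins called and 0 lower. With every count halved, *Gja5* was not tested, which left 3 connexins called. With the longest transcript as the length, the *Gja1* share was 83.7% with vehicle and 80.2% with TGF-β1. Genes called ranged from 8558 to 9038 on leaving out a culture and from 8655 to 9311 otherwise. No paired analysis was possible because the labels number the vehicle cultures 1 to 4 and the TGF-β1 cultures 5 to 8, so that the groups share no number. Depth limits *Gja5*, *Gjb2* and *Gjb6*, with at most 39 counts in any culture.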

Other observations

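The genes whose level across the 8 cultures was most like that of each connexin with a mean of at least 50 counts were taken by Pearson's r of log2 CPM over 16491 genes, as a description in which the points share the treatment groups and library scaling. For *Gja1* they were *Rrp8* (r = 0.965), *Gm45546* (0.946) and *Ercc6l2* (0.944), and 10 genes reached 0.9. For *Gjc1* they were *Mcm2* (0.950), *C230062I16Rik* (0.944) and *Triqk* (0.940), and 5 genes reached 0.9. For *Gja4* they were *C1galt1* (0.996), *Cflar* (0.995) and *Aqp5* (0.993), and 2185 genes reached 0.9. For *Gjb5* they were *Morn4*, *Gm47921* and *Exoc1* (each 0.992), among 1776 genes.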
